A study of Mus musculus with 6 samples.

Results

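The muscle nicotinic acetylcholine receptor and the proteins that assemble it at the nerve contact were examined in mouse tibialis anterior (TA) RNA-seq. The 10 genes were chosen by name and not by a threshold on these data, although earlier results of the data were known: 5 receptor subunits (Chrna1, Chrnb1, Chrnd, Chrne and Chrng), 4 endplate organisers (Musk, Lrp4, Rapsn and Dok7) and the cell adhesion molecule Ncam1. All 10 were found among the 55401 gene identifiers counted. Every sample came from C57BL/6 mice of the genotype HSA-MCM-Bmal1-/-. In these mice a skeletal actin promoter drives a tamoxifen-inducible Cre that removes Bmal1, the core clock transcription factor, from skeletal muscle fibres. They were raised to 12 to 16 weeks of age before tamoxifen. Tamoxifen (2 mg per day for 5 days) was given to the controls as well, so both groups carry the knockout, and muscle without it is not analysed here. AAV-GFP (n = 3) or AAV-RBM20 (n = 3) was injected into the TA 4 weeks later, and muscle was taken 4 weeks after that. The AAV-RBM20 vector carried mouse Rbm20 cDNA with an HA tag behind a CMV promoter, which is not specific to muscle, and its dose exceeded that of AAV-GFP. RBM20 is a splicing regulator of titin. Vector dose and transgene cannot be told apart. The labels do not say that replicates were separate animals, so p-values measure the spread between these samples only.

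The muscle acetylcholine receptor is the ligand-gated channel through which the motor nerve excites the fibre. Agrin released by the nerve binds LRP4, which activates the kinase MuSK, and MuSK acts with the adaptor DOK7 and the scaffold rapsyn to gather receptors under the nerve ending. The adult receptor holds the epsilon subunit in place of the fetal gamma subunit. After denervation, fibres along their whole length switch on the subunit genes of the fetal receptor, Musk and Ncam1, which is why these genes are widely read as markers of lost innervation.

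The subunit genes are known to respond to myogenic transcription factors through E-boxes in their proximal promoters, and the 250 bases before the RefSeq transcript start are therefore shown for the 4 subunit genes with a RefSeq promoter window (build GRCm38.p6). Capitals mark every E-box, CANNTG, searched on both strands. The windows are chr2:73580339-73580588 (minus strand) for Chrna1, chr11:69795938-69796187 (minus strand) for Chrnb1, chr11:70619195-70619444 (minus strand) for Chrne and chr1:87205561-87205810 (plus strand) for Chrng.
Chrna1: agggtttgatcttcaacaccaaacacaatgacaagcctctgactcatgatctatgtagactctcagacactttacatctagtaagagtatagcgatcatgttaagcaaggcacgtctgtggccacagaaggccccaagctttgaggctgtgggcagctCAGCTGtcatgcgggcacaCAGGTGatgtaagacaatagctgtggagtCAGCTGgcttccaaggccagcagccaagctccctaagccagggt
Chrnb1: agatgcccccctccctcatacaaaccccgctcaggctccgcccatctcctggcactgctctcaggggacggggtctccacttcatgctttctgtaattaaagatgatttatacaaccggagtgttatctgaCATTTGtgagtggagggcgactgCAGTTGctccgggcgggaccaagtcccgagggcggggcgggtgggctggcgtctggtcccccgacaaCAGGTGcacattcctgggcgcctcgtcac
Chrne: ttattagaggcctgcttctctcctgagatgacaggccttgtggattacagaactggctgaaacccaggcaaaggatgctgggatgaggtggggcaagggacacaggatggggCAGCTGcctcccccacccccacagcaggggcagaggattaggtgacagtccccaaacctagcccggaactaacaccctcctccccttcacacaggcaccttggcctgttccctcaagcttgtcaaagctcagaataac
Chrng: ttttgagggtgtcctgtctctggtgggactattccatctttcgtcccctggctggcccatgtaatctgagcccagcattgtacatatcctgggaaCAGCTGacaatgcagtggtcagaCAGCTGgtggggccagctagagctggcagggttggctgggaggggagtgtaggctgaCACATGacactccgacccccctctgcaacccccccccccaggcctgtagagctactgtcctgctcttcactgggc

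Chrna1, Chrnb1 and Chrng each held 3 E-boxes and Chrne held 1. The form CAGCTG, which is 1 of the sequences that CANNTG covers, occurred at 2 places in Chrna1, starting 92 and 44 bases before the start site, and at 2 places in Chrng, 155 and 132 bases before it. Chrne held CAGCTG 138 bases before its start, and Chrnb1 held none. Of the 32851 RefSeq windows of the same length, 66.2% held CANNTG and 13% held CAGCTG, so an E-box of any form is common and CAGCTG less so. Chrne also held CCGGAA, the N-box through which GABP and ETV5 are known to act at endplate genes, 76 bases before its start. CCGGAA was in 12% of all windows. The windows of Musk and Dok7 held 0 copies of CCGGAA, and the RUNX core TGTGGT, which 14% of all windows held, was in none of the 7 windows of the 6 genes with an entry. Chrnd, Lrp4, Rapsn and Ncam1 had no entry. The GENCODE gene model of Chrng begins 1154 bases upstream of the RefSeq start used here. A match is a description of the letters and not evidence of binding.

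Library totals ranged from 41400132 to 54226618 counts. Rbm20, the delivered gene, was at 166 ± 3.20 CPM (counts scaled to a common library size; mean ± SD, n = 3) in AAV-GFP and at 484 ± 71.0 CPM in AAV-RBM20, and the groups did not overlap. The libraries numbered 3 stood apart in both groups: Ttn took 4.48% and 9.05% of their counts against 16.9% to 17.8% elsewhere, and mitochondrially encoded genes took 12.5% and 11.4% against 6.41% to 7.67%. The log2 fold changes of the 9 tested receptor and endplate genes are given with and without them. The 9 muscle fibre markers, among them Acta1, Ckm and Myh4, were detected in every library and summed to 106688, 97448 and 100364 CPM in AAV-GFP and to 86931, 93253 and 63440 CPM in AAV-RBM20. This sum was lower in every AAV-RBM20 library. Of the log2 fold changes 3 were positive and 6 negative (median -0.34), and 0 markers passed the edgeR test, where 0% of all genes passed. Those positive were Mb (0.27), Myh1 (0.42) and Myh2 (0.76). Myh4 took the largest part of the sum, at a mean of 36646 CPM in AAV-GFP and 24805 CPM in AAV-RBM20.

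The first comparison asked which receptor and endplate genes differed between AAV-RBM20 and AAV-GFP muscle. Ncam1 was the gene whose AAV-RBM20 libraries all lay above the AAV-GFP libraries (1.63-fold by mean CPM), and Rapsn was the gene whose AAV-RBM20 libraries all lay below them (0.842-fold). Musk was lower and Lrp4 higher within each of the 3 same-numbered pairs. Among the tested receptor subunits Chrna1, Chrnd and Chrne had positive and Chrnb1 a negative log2 fold change, each with a 95% interval that includes 0. Of the 10 genes, 9 had enough counts to be tested, and 5 had a positive and 4 a negative log2 fold change, with a median of 0.34 against 0.009 over all 17222 genes tested. Leaving out AAV-RBM20 replicate 2 turned that median to -0.074, and leaving out replicate 3 of the same group raised it to 0.70. With edgeR's quasi-likelihood test and Benjamini-Hochberg adjustment over all genes, 0 of the 9 genes passed an adjusted p of 0.05, as did 0% of all genes. At an unadjusted p of 0.05 the count was 1 of 9 (Ncam1), against 7.9% of all genes. Without a block DESeq2 and limma-voom each called 0 of the 9, where DESeq2 called 0.362% and limma-voom 0% of all genes.

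**Figure D1:**
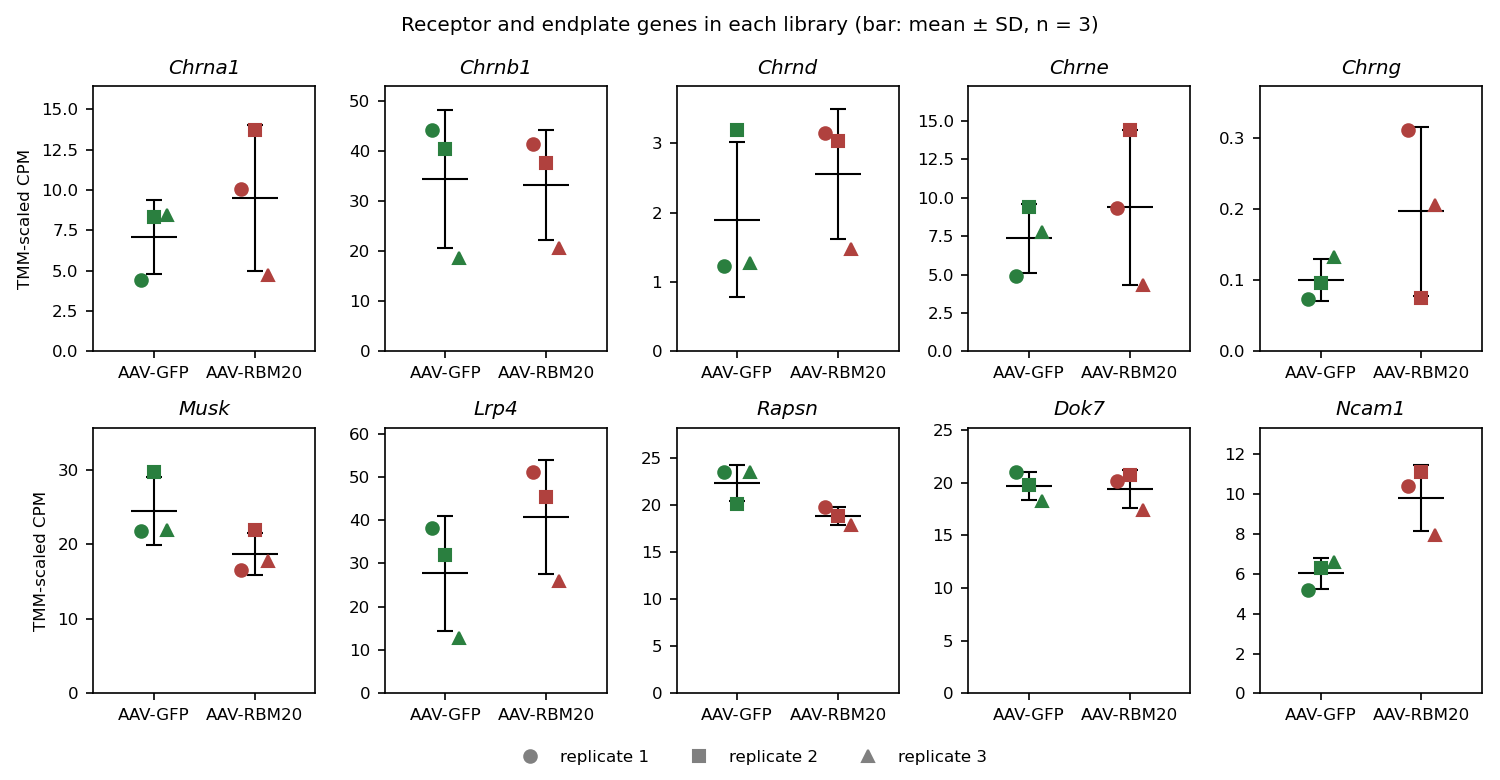
TMM-scaled CPM of the 10 genes in each library, with the group mean and SD (bars, n = 3) and symbols for the replicate number. Ncam1 runs from 5.17 to 6.61 CPM in AAV-GFP and from 7.95 to 11.1 CPM in AAV-RBM20, while the libraries numbered 3 (triangles) are the lowest of both groups for Chrnb1 and Lrp4.

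When the replicate number of the titles was added as a block, 0 of the 9 genes passed the adjusted threshold, against 0.145% of all genes. The sources do not state that same-numbered samples were paired, so every result with the block depends on that assumption. Without adjustment 4 of 9 then lay under 0.05 (Ncam1, Lrp4, Musk and Rapsn), against 18.8% of all genes. Groups without overlap were seen in Ncam1, where 7.71% of all genes had all AAV-RBM20 libraries above the controls, and in Rapsn, where 9.04% had all of them below. DESeq2 with the block called Lrp4 and Ncam1, where it called 3.28% of all genes, and edgeR without the libraries numbered 3 called the same pair, where it called 4% of all genes.

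**Figure D2:**
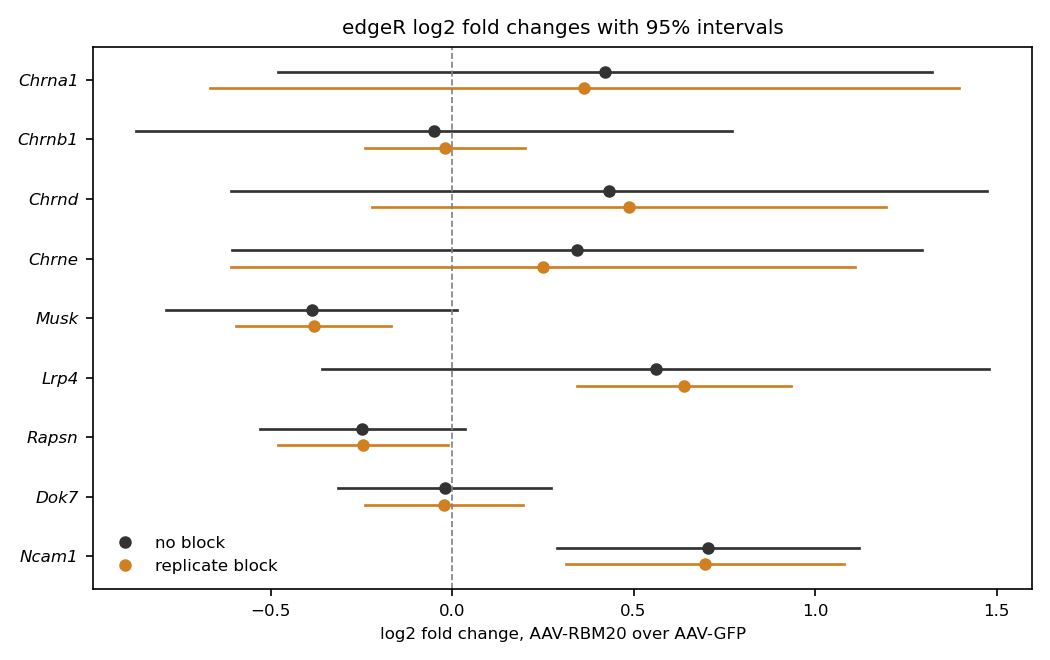
Log2 fold change of AAV-RBM20 over AAV-GFP for the 9 tested genes with 95% intervals, without (black) and with (orange) the replicate number as a block. The interval of Lrp4 narrows from -0.36 to 1.48 without the block to 0.34 to 0.93 with it, and that of Chrna1 spans 0 in both.

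Chrna1 (ENSMUSG00000027107; GRCm38 chromosome 2, 73563215 to 73580338, minus strand) encodes the alpha subunit, which carries the acetylcholine binding site. It was measured at 4.45, 8.34 and 8.45 CPM in AAV-GFP replicates 1, 2 and 3 and at 10.1, 13.7 and 4.76 CPM in AAV-RBM20 replicates 1, 2 and 3. The groups overlapped, because AAV-RBM20 replicate 3 lay below 2 of the 3 controls while the other treated libraries lay above all of them. This gave a log2 fold change of 0.42 ± 0.39 (SE; 95% interval -0.48 to 1.32; edgeR adjusted p of 0.754). Without both libraries numbered 3 it was 0.89, with an adjusted p of 0.376. Without AAV-RBM20 replicate 2, the highest library, it was 0.06.

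Chrne (ENSMUSG00000014609; chromosome 11, 70614883 to 70619216, minus strand) encodes the adult epsilon subunit. It was measured at 4.92, 9.37 and 7.77 CPM in AAV-GFP and at 9.35, 14.4 and 4.34 CPM in AAV-RBM20. The lowest and the highest library were both in the AAV-RBM20 group. The log2 fold change of 0.34 ± 0.41 (SE; 95% interval -0.61 to 1.29; edgeR adjusted p of 0.815) became -0.10 without AAV-RBM20 replicate 2 and 0.73 without both libraries numbered 3. The ratio of treated to control CPM was 1.90 in the pair numbered 1, 1.53 in that numbered 2 and 0.559 in that numbered 3. For Chrna1 the same ratios were 2.26, 1.64 and 0.563.

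Chrnd (ENSMUSG00000026251; chromosome 1, 87190607 to 87200070, plus strand), the delta subunit gene, was measured at 1.23, 3.19 and 1.27 CPM in AAV-GFP and at 3.15, 3.04 and 1.48 CPM in AAV-RBM20. The groups overlapped, with AAV-GFP replicate 2 the highest of all libraries. Its log2 fold change was 0.43 ± 0.45 (SE; 95% interval -0.61 to 1.47; edgeR adjusted p of 0.783), and 0.49 without both libraries numbered 3. Leaving out AAV-GFP replicate 2 moved it to 1.03, while leaving out AAV-GFP replicate 1 or 3 moved it to 0.20 or 0.21.

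Chrnb1 (ENSMUSG00000041189; chromosome 11, 69784036 to 69795943, minus strand) encodes the beta subunit. Its level was 44.2, 40.4 and 18.7 CPM in AAV-GFP and 41.5, 37.6 and 20.7 CPM in AAV-RBM20. Each AAV-RBM20 library lay close to the control of the same number, and the libraries numbered 3 were low in both groups. The log2 fold change was -0.05 ± 0.36 (SE; 95% interval -0.87 to 0.77; edgeR adjusted p of 0.974), and -0.02 with an interval of -0.24 to 0.20 with the block. Its sign turned when single libraries were left out, to 0.17 for AAV-GFP replicate 1, 0.08 for AAV-GFP replicate 2 and 0.21 for AAV-RBM20 replicate 3, and it was -0.089 without both libraries numbered 3.

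Chrng (ENSMUSG00000026253; chromosome 1, 87204657 to 87212694, plus strand), the fetal gamma subunit gene, was near the limit of detection. The AAV-GFP libraries held 3, 4 and 7 counts and the AAV-RBM20 libraries 17, 3 and 10, that is 0.0738, 0.0958 and 0.133 CPM against 0.312, 0.0746 and 0.206 CPM. AAV-RBM20 replicate 2 was level with the controls, and the other treated libraries were above them. It did not pass the filter on low counts. Fitted without that filter, it gave a log2 fold change of 0.95 ± 0.74 (SE; edgeR adjusted p of 0.761).

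Per length of exon the fetal subunit stood far below the adult one in every library. It did so in raw counts too, with 3 to 17 for Chrng and 200 to 578 for Chrne. Exon length was merged over all annotated transcripts, 4163 bases for Chrng and 1690 for Chrne, so the shares depend on the gene models. Chrng reached 0.609%, 0.415% and 0.695% of the Chrne level (CPM per kilobase of exon) in AAV-GFP replicates 1, 2 and 3 and 1.35%, 0.211% and 1.92% in AAV-RBM20. AAV-RBM20 replicate 2 had the lowest share of all 6 libraries and the other 2 treated libraries the highest. The log2 ratio of Chrng to Chrne was -7.48 ± 0.39 (SD, n = 3) in AAV-GFP and -6.93 ± 1.71 in AAV-RBM20. Their difference of 0.55 was smaller than the spread within AAV-RBM20, and between 3 and 17 counts of Chrng stand behind each share.

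**Figure D3:**
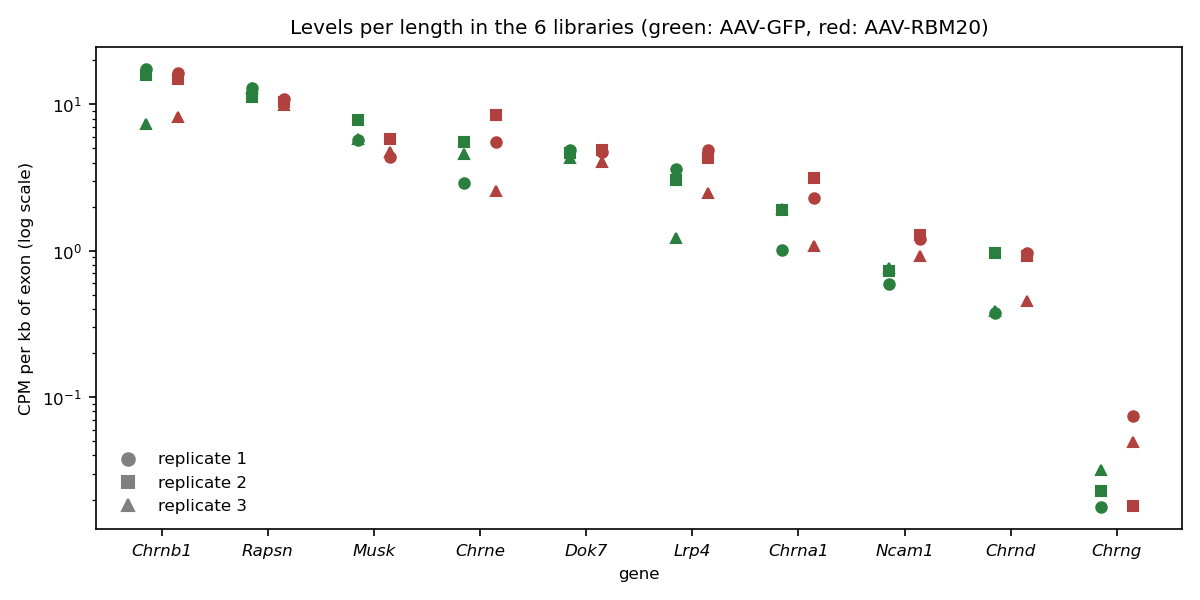
CPM per kilobase of exon (log scale) of the 10 genes in the 6 libraries, ordered by mean level, with AAV-GFP in green, AAV-RBM20 in red and symbols for the replicate number. Chrnb1 is highest at a mean of 13.4, and Chrng lies below every other gene at 0.0358.

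On the same per-length scale the mean over all 6 libraries was 13.4 for Chrnb1, 11.4 for Rapsn, 5.71 for Musk, 4.94 for Chrne, 4.58 for Dok7, 3.26 for Lrp4, 1.89 for Chrna1, 0.914 for Ncam1, 0.677 for Chrnd and 0.0358 for Chrng. The order depends on the merged exon length of each gene. Of the 9 pairs of neighbours in this order, 7 overlapped in their range over the libraries. The ranges were apart only between Rapsn and Musk and between Chrnd and Chrng. Dok7 and Rapsn were the steadiest, with the highest library 1.21 and 1.31 times the lowest. Chrng (4.22), Lrp4 (3.96), Chrne (3.31) and Chrna1 (3.08) spread most. The subunits of one receptor were thus counted at unequal levels, Chrnb1 above Chrna1 and Chrnd in every library.

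Among the organisers, Lrp4 (ENSMUSG00000027253; chromosome 2, 91457511 to 91513779, plus strand) encodes the agrin receptor. AAV-GFP libraries had 38.2, 32.0 and 12.9 CPM of Lrp4 and AAV-RBM20 libraries 51.1, 45.4 and 25.9 CPM. The groups overlapped because AAV-RBM20 replicate 3 lay below AAV-GFP replicates 1 and 2. Both libraries numbered 3 were the lowest of their groups, but each treated library lay above the control of its own number, by 1.34-, 1.42- and 2.01-fold. This comparison gave 0.56 ± 0.40 on the log2 scale (SE; 95% interval -0.36 to 1.48; edgeR adjusted p of 0.699). With the replicate block it was 0.64 ± 0.13 (SE; edgeR adjusted p of 0.0950), in DESeq2 with the block 0.62 (adjusted p of 0.00604), and without both libraries numbered 3 it was 0.47 ± 0.10 (SE; edgeR adjusted p of 0.0307). Without AAV-GFP replicate 3 alone it was 0.22.

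Musk (ENSMUSG00000057280; chromosome 4, 58285960 to 58374303, plus strand), the kinase activated through LRP4, had the opposite sign. It was measured at 21.7, 29.6 and 21.96 CPM in AAV-GFP and at 16.5, 21.9 and 17.7 CPM in AAV-RBM20. AAV-RBM20 replicate 2 came just above AAV-GFP replicate 1, which is the only overlap, and every treated library was below the control of its number. The log2 fold change was -0.39 ± 0.17 (SE; 95% interval -0.79 to 0.01; unadjusted p of 0.0569, edgeR adjusted p of 0.641), and with the block -0.38 ± 0.09 (SE; edgeR adjusted p of 0.124). The ratio to the control of the same number was 0.759, 0.738 and 0.808. The value was -0.42 without both libraries numbered 3 and -0.23 without AAV-GFP replicate 2.

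Rapsn (ENSMUSG00000002104; chromosome 2, 91035620 to 91045729, plus strand) encodes rapsyn, the scaffold that binds receptors to the cytoskeleton. It was measured at 23.5, 20.1 and 23.4 CPM in AAV-GFP and at 19.8, 18.8 and 17.9 CPM in AAV-RBM20, and the groups did not overlap. The log2 fold change was -0.25 ± 0.12 (SE; 95% interval -0.53 to 0.03; edgeR adjusted p of 0.647), and -0.17 without both libraries numbered 3. A two-sided exact permutation test reached 0.1, which is the lowest p that 3 against 3 samples allow. An antisense gene, Gm13778, shares exonic bases with Rapsn and had 7 to 38 counts. The summed fibre markers given above were also lower in every AAV-RBM20 library, though 3 of the 9 had a positive log2 fold change. Their part in the Rapsn and Musk values was not tested. Reads of Rapsn and Gm13778 cannot be assigned with certainty, since the strand setting of the counting is not given in the sources used here.

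Dok7 (ENSMUSG00000044716; chromosome 5, 35056766 to 35087839, plus strand), which encodes the adaptor that activates MuSK from inside the fibre, was measured at 21.0, 19.8 and 18.3 CPM in AAV-GFP and at 20.1, 20.7 and 17.4 CPM in AAV-RBM20. All 6 libraries lay within a narrow band. The log2 fold change was -0.02 ± 0.13 (SE; 95% interval -0.31 to 0.27; edgeR adjusted p of 0.971). Its sign turned with upper quartile scaling (0.022), with AAV-GFP replicate 1 left out (0.024), with AAV-RBM20 replicate 3 left out (0.062) and with both libraries numbered 3 left out (0.0087). The organisers thus had log2 fold changes of both signs, 1 positive and 3 negative.

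Ncam1 (ENSMUSG00000039542; chromosome 9, 49502136 to 49798925, minus strand) encodes the neural cell adhesion molecule, which in muscle marks the endplate, satellite cells and denervated or regenerating fibres. It was measured at 5.17, 6.28 and 6.61 CPM in AAV-GFP and at 10.4, 11.1 and 7.95 CPM in AAV-RBM20. The groups did not overlap, and AAV-RBM20 replicate 3 was nearest to the controls. The means were 6.02 ± 0.757 and 9.82 ± 1.66 CPM (SD, n = 3), a log2 fold change of 0.70 ± 0.18 (SE; 95% interval 0.29 to 1.12; unadjusted p of 0.0045, edgeR adjusted p of 0.618), higher in 3 of 3 pairs. The two-sided exact permutation p was again 0.1. Without both libraries numbered 3 the log2 fold change was 0.92 with an edgeR adjusted p of 0.00539. DESeq2 gave adjusted p values of 0.231 without and 0.0473 with the replicate block. An antisense gene that shares exonic bases with Ncam1, Gm11149, had 0 counts in every library.

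Ncam1 is also expressed by satellite cells and Schwann cells, and in bulk muscle fewer cells of a type and less RNA per cell cannot be told apart. The 8 myoblast and satellite cell markers, among them Pax7, Myf5 and Myod1, summed to 70.7, 69.8 and 67.9 CPM in AAV-GFP and to 63.6, 59.6 and 51.3 CPM in AAV-RBM20. This sum was lower in every AAV-RBM20 library although 4 of the 6 markers tested had a positive log2 fold change. Most of the sum was Myod1 (mean 39.7 CPM in AAV-GFP and 31.7 in AAV-RBM20) and Cdh15 (21.6 and 15.4), the only tested markers with negative values. Those with positive values were Pax7 (3.82 and 4.83 CPM), Myf5, Calcr and Megf10. The fusion gene Mymx was at 0 in at least 1 library. The 11 Schwann cell markers, among them Sox10 and S100b, summed to 28.1, 63.3 and 38.4 CPM against 43.4, 56.0 and 38.7 CPM, with overlapping groups and 8 positive log2 fold changes (median 0.096). The 12 macrophage markers, among them Adgre1, Cd68 and Csf1r, summed to 42.5, 39.6 and 134 CPM against 94.5, 84.9 and 207 CPM, higher in AAV-RBM20 in each pair, with 11 positive log2 fold changes and a median of 0.799. None of the markers in these 3 lists passed the edgeR test without the block, where 0% of all genes passed. With the block Ptprc and Ctss of the macrophage list did, where 0.145% of all genes passed. The part of these cells in the Ncam1 values was not tested.

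The next comparison asked how the genes varied from library to library, with the difference between the groups left in. Chrna1 and Chrne shared 1 pattern: their 2 lowest libraries were AAV-GFP replicate 1 and AAV-RBM20 replicate 3, and their highest was AAV-RBM20 replicate 2. Of the 39 tested genes of a junction pathway list, Ache, Colq and Etv5 had that order (7.69%), as did 109 of all 17222 genes tested (0.633%). The order was read from Chrna1 in these same libraries, and the list was chosen with earlier results known. These shares are therefore descriptions and not a test. Ache encodes the esterase that degrades acetylcholine, Colq its collagen tail in the synaptic cleft, and Etv5 a transcription factor of endplate genes. Another pattern, with both libraries numbered 3 as the 2 lowest, was held by Chrnb1, Lrp4 and Dok7 (33.3% of the 9 genes tested), by 28.2% of the pathway genes and by 19.4% of all genes.

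**Figure D4:**
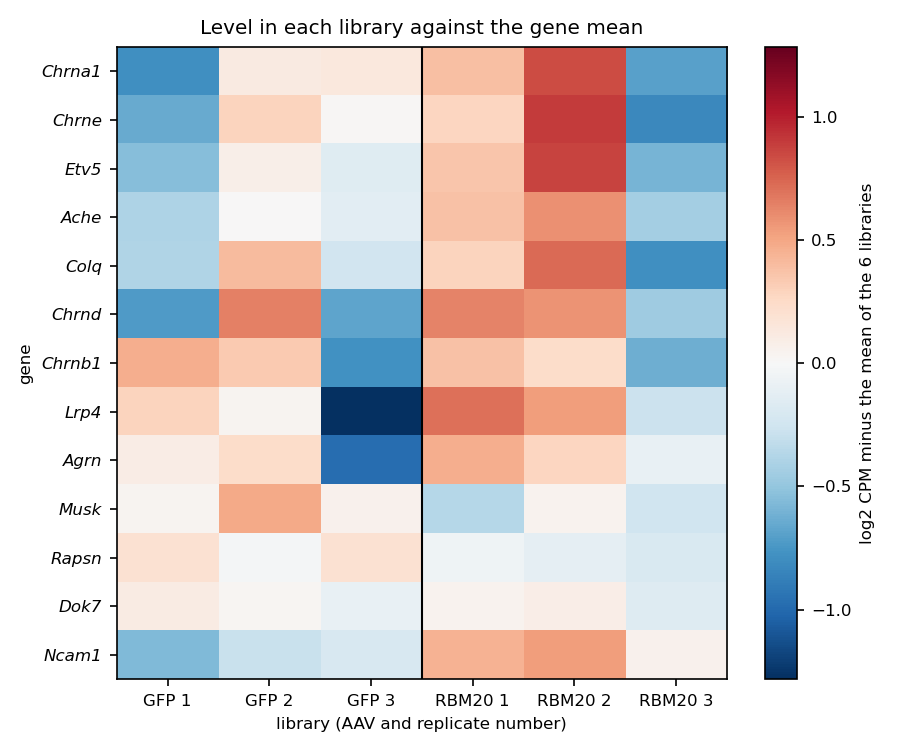
Log2 CPM of chosen receptor, endplate and junction pathway genes in each library, minus the gene's mean over the 6 libraries (red above, blue below). Chrna1, Chrne, Etv5, Ache and Colq are lowest in GFP 1 and RBM20 3 and highest in RBM20 2, while Chrnb1, Lrp4 and Agrn are lowest in the libraries numbered 3.

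The genes most like Chrna1 over the 6 libraries, by Pearson correlation of their log2 CPM, were Itpkc (0.987), 9530020I12Rik (0.974), Ufd1 (0.970), Pou3f1 (0.968) and Etv5 (0.962). Etv5 was measured at 8.90, 13.7 and 11.6 CPM in AAV-GFP and at 16.6, 23.6 and 8.57 CPM in AAV-RBM20. Ache was measured at 29.9, 39.3 and 35.5 CPM against 50.8, 58.6 and 29.0 CPM. In both, AAV-RBM20 replicate 3 was the lowest library and the other treated libraries were above the controls. These correlations are descriptions over 6 libraries that were searched across all genes, and they include the difference between the groups. What gave Chrna1 and Chrne their order was not tested.

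The other genes of the agrin and receptor pathway had small differences of both signs. Of a list of 40, 39 were tested, 24 with a positive and 15 with a negative log2 fold change (median 0.137). Of the 39, 0 passed the edgeR test without the block, where 0% of all genes passed. With the block 0 passed, where 0.145% of all genes did. At an unadjusted p of 0.05 the count was 3 of 39, against 7.9% of all genes. Without both libraries numbered 3, Lama4, Nid2, Gfpt1 and Sntb1 passed the adjusted threshold, which 4% of all genes did in that setting. Agrn, the ligand of LRP4, followed Lrp4 in its low library: it was measured at 22.2, 24.3 and 10.5 CPM in AAV-GFP and at 28.7, 25.2 and 19.4 CPM in AAV-RBM20, higher in each pair (log2 fold change 0.36 ± 0.30 (SE), edgeR adjusted p of 0.734). Without AAV-GFP replicate 3 alone the value of Agrn was 0.068. Nrg1, the neuregulin ligand, was not tested, with 2, 0 and 0 counts against 2, 4 and 6. All 8 synaptic cleft genes had a positive value, from 0.01 to 0.51 for Col13a1, a muscle collagen of the cleft. Of that group Ache stood at 0.40 (edgeR adjusted p of 0.665) and Colq at 0.23 (0.868). Without AAV-GFP replicate 3 the value of Col13a1 was 0.13, and without AAV-RBM20 replicate 2 that of Ache was 0.19 and that of Colq -0.13. All 4 glycosylation enzymes had a negative value. Gfpt1, which starts the hexosamine pathway and is mutated in a congenital myasthenic syndrome, was the lowest at -0.30 ± 0.12 (SE; edgeR adjusted p of 0.618), with 60.4 ± 4.11 CPM in AAV-GFP and 49.1 ± 1.94 CPM in AAV-RBM20 and no overlap. Pak1, a kinase acting downstream of MuSK, was the highest of the list at 0.73 ± 0.36 (SE; adjusted p of 0.647), followed by Col13a1 and by Etv5 at 0.51. Without both libraries numbered 3 these became 1.302 for Pak1, 0.35 for Col13a1 and 0.83 for Etv5, and those of Agrn and Ache 0.22 and 0.67, none of them past the adjusted threshold. Without AAV-RBM20 replicate 2 Pak1 was at 0.45 and Etv5 at 0.14. Dnaja3, a chaperone that binds MuSK, at -0.26, and Pdzrn3, a ubiquitin ligase of MuSK, at -0.20 were the lowest after Gfpt1. Dnaja3, Ache, Colq, Nid2 and Nrg1 share exonic bases with other annotated genes, as do Runx1, Hdac4, Cdkn1a, Ampd3 and Fbxo32 of the next list, so their counts are uncertain.

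**Figure D5:**
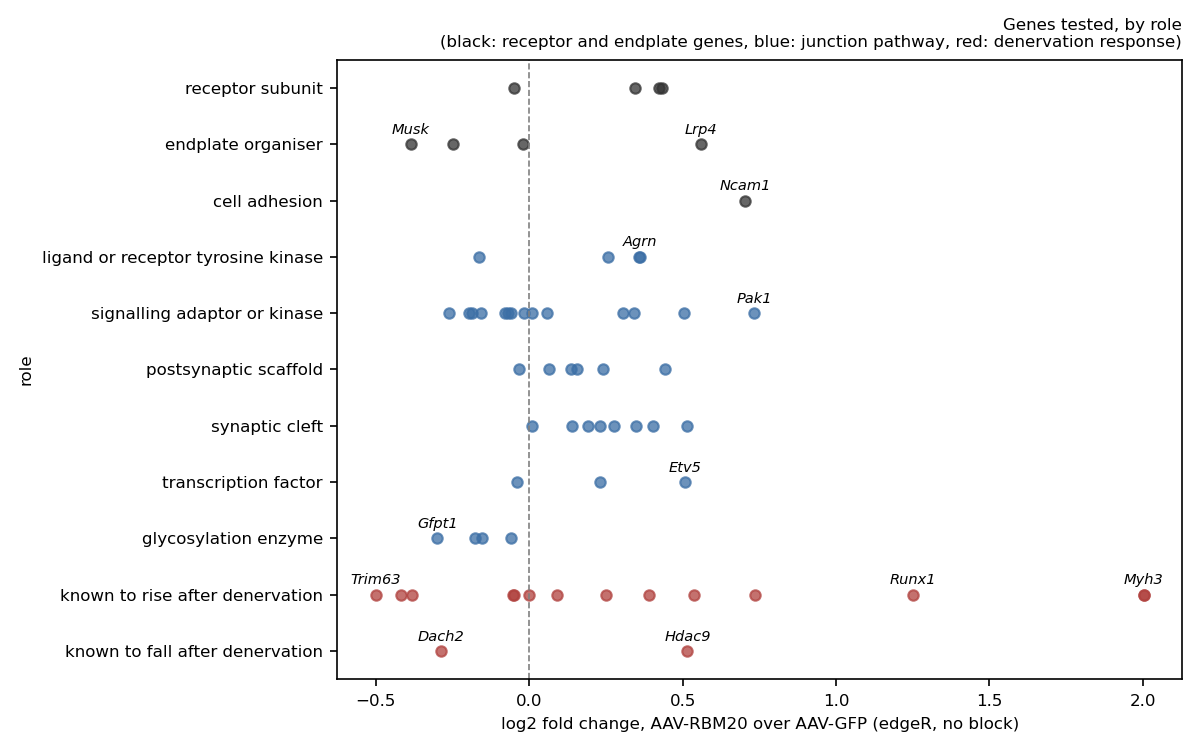
Log2 fold change of AAV-RBM20 over AAV-GFP (edgeR, no block) for each tested gene, in rows by role, with the receptor and endplate genes in black, the junction pathway in blue and the denervation-response list in red. Myh3 and Myh8 lie together at 2.00 and Runx1 at 1.25, while all 4 receptor subunits tested lie between -0.05 and 0.43.

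The receptor genes were then set beside a list of genes known to respond to denervation. Of the 14 genes of the list known to rise, 8 had a positive and 6 a negative log2 fold change (median 0.17). None of the 16 genes in the whole list passed the edgeR test without the block, where 0% of all genes passed. In that test 8 lay under an unadjusted p of 0.05 (6 higher and 2 lower, against 7.9% of all genes in either direction). With the block Runx1 passed, as did 0.145% of all genes. DESeq2 called Runx1, Myh3 and Myh8, all higher, where it called 0.362% of all genes. With the block DESeq2 called 7 of the 16, where it called 3.28% of all genes: Runx1, Myh3, Myh8, Hdac9 and Ampd3 higher, and Fbxo32 and Trim63 lower. Without both libraries numbered 3, where 4% of all genes passed, edgeR called Runx1, Hdac9 and Ampd3 higher and Fbxo32 lower. Runx1, a transcription factor induced in denervated fibres, was measured at 4.77, 6.01 and 5.95 CPM in AAV-GFP and at 13.8, 12.4 and 13.5 CPM in AAV-RBM20. Its groups were far apart, with a log2 fold change of 1.25 ± 0.15 (SE; edgeR adjusted p of 0.257) and of 1.26 ± 0.14 (SE; edgeR adjusted p of 0.0271) with the block. It is also expressed by blood cells, and the macrophage marker sums given above were higher in AAV-RBM20 in each pair; their part in the Runx1 values was not tested. Myog, the myogenic factor that acts on subunit promoters after denervation, was measured at 1.80, 2.04 and 2.11 CPM against 2.88, 3.18 and 2.57 CPM, without overlap (log2 fold change 0.54 ± 0.21 (SE), edgeR adjusted p of 0.618). Unlike Myog, Chrna1, Chrnd and Chrne overlapped between the groups.

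The genes of embryonic and perinatal myosin, Myh3 and Myh8, had the highest log2 fold changes of the list with all 6 libraries, at 2.00 each. Myh3 was measured at 1.13, 1.44 and 0.646 CPM in AAV-GFP and at 8.38, 2.54 and 1.87 CPM in AAV-RBM20, and Myh8 at 1.87, 1.82 and 0.874 CPM against 10.4, 3.98 and 3.81 CPM. Both were highest in AAV-RBM20 replicate 1, which is also the highest library of Chrng and Lrp4. Without that library the log2 fold change was 1.05 for Myh3 and 1.36 for Myh8, beside 1.22 for Runx1. The edgeR adjusted p was 0.618 for Myh3 and 0.617 for Myh8. Atrogin-1 (Fbxo32) and MuRF1 (Trim63), ubiquitin ligases known to rise in denervated muscle, had negative values without overlap of the groups. Fbxo32 was at 540 ± 56.1 CPM in AAV-GFP and 404 ± 1.41 CPM in AAV-RBM20, and Trim63 at 233 ± 44.9 and 165 ± 14.9 CPM (edgeR adjusted p of 0.618 for each). Hdac4, which represses Dach2 after denervation, was at 106 CPM in each group (edgeR adjusted p of 0.999). Of the pair of genes known to fall after denervation, Hdac9 had a positive value of 0.52 ± 0.12 (SE; adjusted p of 0.617) and Dach2 a negative one of -0.29 (0.830). Cdkn1a, the cell cycle inhibitor p21, was the lowest after Trim63 and Fbxo32 at -0.38 (0.877). Its level was 7.22 and 12.4 CPM in the libraries numbered 3 and 34.2 to 57.1 CPM in the others, and its value turned to 0.10 when AAV-GFP replicate 1 was left out. It was -0.022 when AAV-RBM20 replicate 3 was left out, -0.87 when AAV-GFP replicate 3 was, and -0.51 when both were.

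Of the 11 nicotinic subunits of neuronal and other receptors, 3 were tested and 0 passed the edgeR test without the block, where 0% of all genes passed. Chrna4 had the highest CPM of them at 1.92, 2.11 and 0.0950 CPM in AAV-GFP and 1.19, 0.896 and 0.824 CPM in AAV-RBM20, with AAV-GFP replicate 3 far below the rest. Chrna9 followed with 27, 13 and 2 counts against 2, 9 and 3. Chrna3, Chrna6, Chrnb3 and Chrnb4, which form ganglionic and brain receptors, had 0 counts in all 6 libraries. Muscle receptor subunits other than Chrng had from 50 to 2264 counts per library.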

How the data were processed

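RNA from the TA of 6 samples was sequenced after ribosomal RNA depletion with a stranded kit. The authors mapped paired reads of 100 bases to mm10 with HISAT2 and used HTSeq to count reads per Ensembl gene, with versions, annotation release and strand setting not given in the sources used here. The counts were deposited by the authors as whole numbers, with no scaling. Their table of normalised values was not used. Gene symbols and positions came from GENCODE M21 (GRCm38), and promoter windows from RefSeq.

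Samples were grouped by the labels. AAV-RBM20 was compared with AAV-GFP by the quasi-likelihood test of edgeR 4.0.16 in R 4.3.3 (filterByExpr, TMM, robust dispersion, no covariate), with Benjamini-Hochberg adjustment over 17222 genes and a threshold of 0.05. Of the 10 genes Chrng did not pass the filter. CPM used TMM-scaled library sizes, and CPM per kilobase used the merged exon length. Single genes were also given an exact permutation test. The scripts were tested on simulated counts with known changes. Those counts held no replicate effect and no outlying libraries, so this checks the code and not the power in these data.

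The titles give both groups replicate numbers 1 to 3, while the descriptions number the AAV-RBM20 samples 4 to 6. Deviations from the group means correlated at 0.418, 0.201 and 0.484 between same-numbered libraries, all above the minimum of 0.1, and same-numbered samples were treated as pairs. Some differently numbered libraries also passed that minimum. AAV-GFP replicate 2 correlated at 0.216 with AAV-RBM20 replicate 1, above the 0.201 of the pair numbered 2. AAV-GFP replicate 1 correlated at 0.131 with AAV-RBM20 replicate 2. The remaining differently numbered pairs had negative values. The pairing was thus judged from the same data as the block fits. The paper's blot lanes list some animal numbers with both vectors, GFP marked R and Rbm20 marked L. Whether the sequenced samples were paired in this way is not stated. Replicates of a group differed by far more than counting noise (chi-square per degree of freedom 15.1 to 545).

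The 10 genes, the gene lists and the marker lists were chosen with earlier results of these data known. The text names all 10 genes, Rbm20, the 3 highest and 3 lowest log2 fold changes of the pathway and denervation lists, 9 listed genes of interest whatever they showed, the 2 highest other subunits, and the 5 genes most like Chrna1. The alternatives were other scalings and filters, the replicate block, DESeq2 1.42.0, limma-voom 3.58.1, leaving out abundant RNAs and leaving out libraries.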

Additional observations from a re-analysis of the deposited data

How the results depend on the processing

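Over 16 alternatives the 9 tested receptor and endplate genes gave 144 log2 fold changes, of which 131 kept their sign and side of the threshold, 9 turned sign and 4 passed it. Chrnb1 turned sign when any of 3 single libraries was left out (AAV-GFP 1 at 0.17, AAV-GFP 2 at 0.08, AAV-RBM20 3 at 0.21). Over the 16 alternatives Chrnb1 ranged from -0.35 to 0.21. Chrne turned to -0.10 without AAV-RBM20 replicate 2 (range over the 16 from -0.10 to 0.73). Dok7 turned to 0.022 with upper quartile factors, 0.0046 with a CPM filter and 0.0087 without both libraries numbered 3. It also turned to 0.024 without AAV-GFP 1 and 0.062 without AAV-RBM20 3 (range over the 16 from -0.074 to 0.062). The count of the 9 genes past the threshold, 0, became 2 (Lrp4 and Ncam1) in DESeq2 with the replicate block and 2 without both libraries numbered 3, and 1 without adjustment. The replicate block alone left it at 0. Pathway genes went from 0 to 4 without both libraries numbered 3 and to 3 without adjustment. Denervation-response genes went from 0 to 1 with no filter, 1 with the replicate block, 7 in DESeq2 with the block, 3 in DESeq2, 4 without both libraries numbered 3 and 8 without adjustment. Over all genes the count went from 0 to 8 with no filter, 25 with the replicate block, 503 in DESeq2 with the block, 72 in DESeq2, 690 without both libraries numbered 3 and 1360 without adjustment. Leaving out any 1 library called 0 genes in each of these lists and over all genes. The median of the 9 genes ranged from -0.07 to 0.70 as single libraries were left out, and the difference of the log2 ratio of Chrng to Chrne from -0.07 to 1.53. The block cannot change that ratio's difference of means, and the other tools were not run on it because it had no test. The causes of these differences were not tested. With 3 samples per group, a 95% interval clear of 0 was not enough to pass the adjusted threshold. Rbm20 (interval 1.19 to 1.88) and Runx1 (0.91 to 1.59) did not pass it in edgeR with the main filter and no block. A gene that did not pass may therefore still differ.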
